A study of Mus musculus with 15 samples.

Results

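The genes described are Atm, Aptx, Tdp1, Xrcc1 and Xrcc4, the mouse counterparts of DNA break repair genes in which mutations are linked with ataxia in people. They were chosen by symbol under the GENCODE M21 names of the Ensembl identifiers, and are 5 of the 38561 genes in the count tables. RNA-seq was carried out on laser-captured mouse Purkinje cells (PCs), the output neurons of the cerebellar cortex, to follow their transcriptome over the first postnatal weeks. The time points were postnatal days 0, 4, 8, 14 and 21 (P0 to P21), with 3 biological replicates each and 15 samples in all. All mice were males of the strain that the labels spell C56/BL6, and no genetic change or treatment is labelled in any group. The series text gives 1000 PCs per library, and the study's methods add that PCs at P0 were cut out as clusters of cells, so the way of capture and the P0 time point cannot be told apart.

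DNA of a neuron that no longer divides is broken mainly on one strand, by oxidation and by topoisomerases that fail to reseal the strand they cut. Parp1 binds such a break and attracts the scaffold Xrcc1, which holds the end-processing enzymes and the ligase Lig3 in place. Breaks of both strands are sensed by the Mre11a, Rad50 and Nbn complex, which activates the kinase Atm, and are rejoined in resting cells by end joining, in which Xrcc4 holds the ligase Lig4. Inherited loss of these activities often damages the cerebellum, where PCs are among the cells affected.

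Counts on genes ranged from 3409371 to 7814951 per library, and 14293 genes passed the filter on low counts, all 5 of the genes described among them. Reads not counted on a gene, ambiguous ones included, made up between 25.3% and 31.0% of all reads tallied at P0. At the later time points they made up between 18.2% and 24.7%. Levels within a gene are given as CPM, which divides the counts by the TMM-adjusted size of the library. The 6 markers of PCs (Car8, Ppp1r17, Calb1, Itpr1, Pcp4 and Pcp2) summed to a mean of 5340 CPM at P0 and 42941 CPM at P21, and all 6 rose. The 8 astroglial markers summed to 3887 to 5581 CPM at P0, 8328 to 9954 CPM at P8 and 3596 to 5088 CPM at P21. They did not move together, since 3 rose with day (Sept4, Slc1a3 and S100b) and 2 fell (Fabp7 and Aldh1l1). The 10 dividing cell markers summed to 400.0 to 560.2 CPM at P0 and fell to 9.93 to 16.4 CPM at P21, where Aurkb and Birc5 had no count. Granule neuron markers reached a mean sum of 675.1 CPM at P14 with Atoh1 at 0 throughout, oligodendrocyte markers 569.4 CPM at P21, and vascular markers 75.8 CPM at P0. The mean sums of interneuron and microglial markers were no more than 28.3 and 20.4 CPM, with single libraries up to 38.5 and 25.5 CPM.

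On summed exon length Aptx had the highest mean level of the 5 genes at every time point, but at P14 and P21 this order depended on the length used. Levels of different genes were compared as RPKM, counts per kilobase of summed exon length, scaled to the total of counts on genes in the library. Aptx started at 7.12 ± 3.97 RPKM on P0 and reached 15.6 ± 2.19 RPKM on P4 (SD, n = 3 throughout). It then had 7.07 ± 3.10 RPKM at P8, 6.94 ± 0.247 RPKM at P14 and 5.19 ± 0.370 RPKM at P21. At P4, P8 and P14 its 3 samples all lay above those of the next gene, Xrcc4, whose means were 3.50, 2.38 and 3.73 RPKM. At P0 the samples of Aptx overlapped with those of Atm, and at P21 with those of Xrcc1. Atm was second at P0, with 3.36 ± 3.06 RPKM, a place that rested on replicate 1 (6.89 RPKM), since the mean of the other P0 libraries was 1.60 RPKM, below the means of Xrcc1 (3.11 RPKM) and Xrcc4 (1.83 RPKM). From P4 on Atm was last, with 1.32 ± 0.272 RPKM at P4 and 0.652 ± 0.306 RPKM at P21. Its samples overlapped with those of Tdp1, the gene ranked just above it, at each of these later time points. Among the lower 4 genes the neighbours in the order did not separate, except that all P21 samples of Xrcc4 (mean 2.58 RPKM) lay above those of Tdp1 (mean 1.12 RPKM). On the longest protein-coding transcript the mean over all 15 samples rose from 1.39 to 5.47 RPKM for Tdp1, from 2.52 to 5.81 RPKM for Xrcc1 and from 2.81 to 7.67 RPKM for Xrcc4. On that length Aptx kept the highest mean at P0, P4 and P8, with 17.1 ± 2.40 RPKM at P4. At P14, however, Xrcc4 had 10.2 ± 7.50 RPKM and Aptx 7.59 ± 0.270 RPKM. At P21 Xrcc1 had 7.95 ± 4.72 RPKM, Xrcc4 7.06 ± 2.68 RPKM and Aptx 5.68 ± 0.404 RPKM, and the samples of these genes overlapped.

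**Figure D1:**
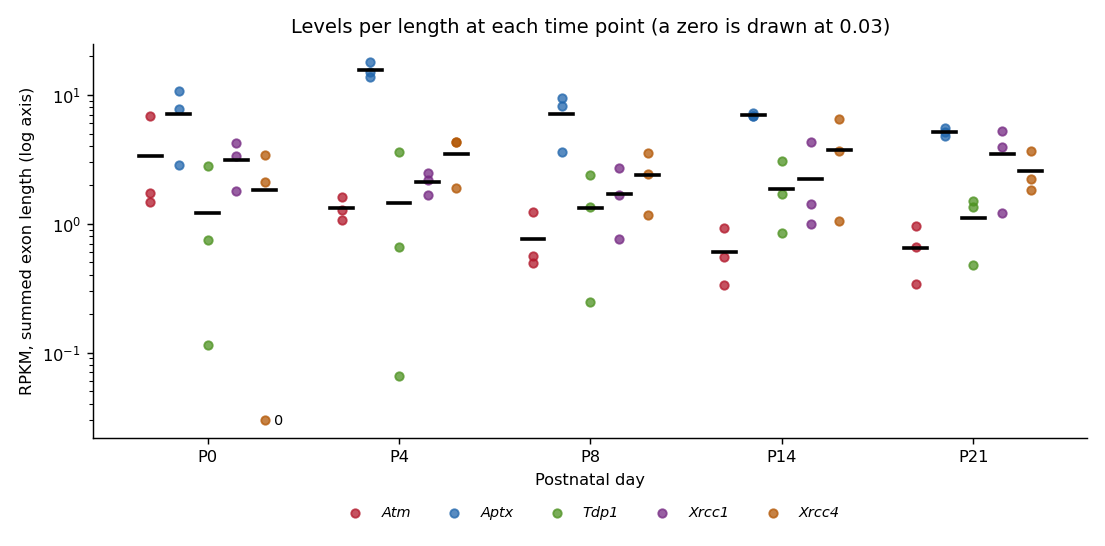
RPKM on a log axis (summed exon length) of the 5 genes in each of the 3 libraries per time point, with a black bar for the mean and the single library without counts, Xrcc4 in a P0 library, drawn at 0.03. The Aptx points lie above those of the other genes at P4, P8 and P14, and the Atm bar stands at 3.36 RPKM at P0, with 1 library at 6.89 RPKM, and at 0.652 RPKM at P21.

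Atm (ENSMUSG00000034218, chr9:53439149-53536740 on the minus strand of GRCm38) encodes the kinase that signals breaks of both strands, and its loss causes ataxia telangiectasia. It was the only one of the 5 genes with a called trend, a fall with postnatal day. Counts in replicates 1, 2 and 3 were 334, 68 and 79 at P0 and 63, 104 and 59 at P4. They were 24, 65 and 31 at P8, 57, 19 and 32 at P14, and 12, 38 and 69 at P21. Scaled to library size, this was 64.2, 13.5 and 16.01 CPM at P0. The later values were 15.5, 13.5 and 10.1 CPM at P4, 4.84, 12.4 and 5.61 CPM at P8, 10.5, 3.64 and 6.14 CPM at P14, and 4.01, 8.05 and 11.0 CPM at P21. One P0 library, replicate 1, stood far above the rest, at 4.35 times the mean of the other P0 libraries and 4.01 times the next highest of all libraries, and it held 31.7% of all counts on Atm. The other P0 libraries overlapped with P4 but lay above every library of P8, P14 and P21.

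The fitted slope of Atm was -0.089 log2 units per day (SE 0.030, 95% interval -0.15 to -0.026), with an adjusted p of 0.0349 in edgeR's quasi-likelihood test. Over the 21 days this is a fold of 0.272 (95% interval 0.108 to 0.685). Falling genes were common in these cells, since 14.1% of all genes tested were called as falling and 12.1% as rising. The fall of Atm rested on the P0 time point. Without P0 replicate 1 the slope was -0.048 with an adjusted p of 0.263, and without all P0 samples it was -0.037 with an adjusted p of 0.538. The call was also lost without P14 replicate 2 (adjusted p = 0.0528), P14 replicate 3 (0.0554) or P21 replicate 1 (0.0774), and it was kept in the other 11 of 15 fits that left out 1 library. It was lost too under limma-voom (adjusted p = 0.0598) and with the replicate number as a block (adjusted p = 0.0917). The dividing cell markers, which fell in the same libraries, summed to 473.1 CPM in P0 replicate 1 and to 400.0 and 560.2 CPM in the other P0 libraries. The share of reads not counted on a gene was 31.0% in P0 replicate 1, the largest of all 15 libraries. It was 28.7% and 25.3% in the other P0 libraries. The part of either measure in the fall was not tested. In bulk samples fewer cells of a type and less RNA per cell cannot be told apart.

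When the time point was a factor, so that any course could be found, Atm had an adjusted p of 0.112 and was not called, beside 19.3% of all genes. DESeq2's likelihood ratio test of the same question called it (adjusted p = 0.0195, beside 28.2% of genes with a value), and gave no p for its trend. From P0 to P21 edgeR gave a log2 fold change of -2.01 (SE 0.76, 95% interval -3.63 to -0.39, adjusted p = 0.0702), while 22.8% of all genes were called in either direction. DESeq2 gave -2.05 with an adjusted p of 0.0235, beside 14.5% of genes called as falling. Of the 9309 protein-coding genes with a mean of at least 10 CPM, those whose log2 CPM ran most like Atm over the 15 samples were Pcdh19, a protocadherin (Pearson r = 0.907), Dync1h1, the heavy chain of cytoplasmic dynein (r = 0.895), and Pfkp, a phosphofructokinase of glycolysis (r = 0.879). These r values are descriptions over samples that share their time points.

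The start of Atm faces that of Npat, a gene needed for histone transcription, which begins 307 bases upstream on the other strand in GENCODE M21. RefSeq extends both genes toward each other, and the stretch that its gene models leave between them is shown because it is bounded by both genes. It has 60 bases of RefSeq sequence (GRCm38.p6, chr9:53536829-53536888, minus strand), with a GC box (GGGCGG) and a CCAAT box read on the other strand (ATTGG) in capitals.
Atm upstream: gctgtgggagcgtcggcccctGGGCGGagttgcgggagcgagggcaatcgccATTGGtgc
Each motif was searched on both strands of 32851 RefSeq promoter windows, which run from 250 bases before to 50 after a start. These windows are longer than the stretch shown. Of them, 35.7% held a GC box and 37.4% a CCAAT box. The full window of Atm (chr9:53536622-53536921), with 1 GC box and 1 CCAAT box, also held TATAAA, found in 13.6% of windows. TATAAA is not within the stretch shown. The ratio of observed to expected CpG in the full window was 0.957, above that of 91.5% of windows. Part of this window lies inside Atm, whose GENCODE M21 start is at 53536740 on the minus strand. RefSeq extends the gene farther into the window. These values thus do not describe only the sequence before the start. Npat had 20.2 ± 5.54 CPM at P0 and 38.1 ± 2.22 CPM at P4 (SD, n = 3). Its later means were 21.7 ± 5.62 CPM on P8, 19.6 ± 8.54 CPM on P14 and 24.9 ± 11.6 CPM on P21. The mean of Npat was thus highest at P4, not at P0 like that of Atm.

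**Figure D2:**
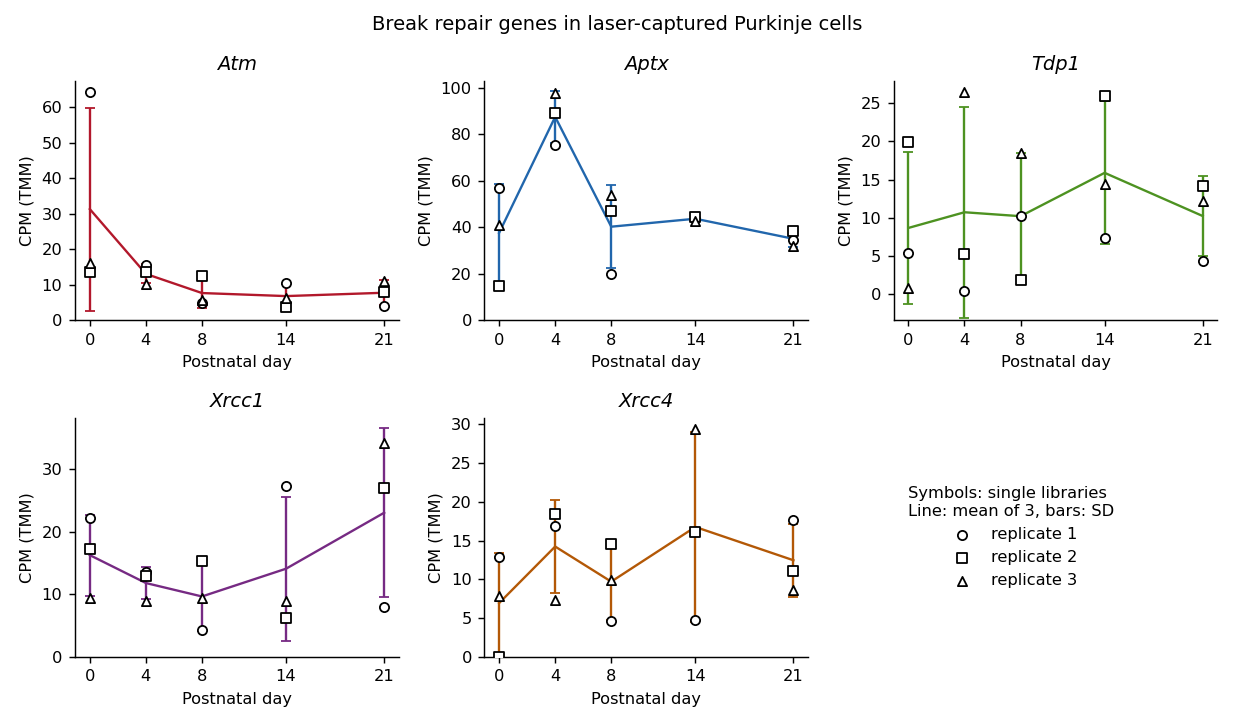
CPM against postnatal day in a panel for each of the 5 genes, with a symbol for each library and replicate number, the line through the means and bars of 1 SD (n = 3). Atm has a single library at 64.2 CPM at P0, the 3 Aptx libraries at P4 lie above all its others, and the points of Tdp1, Xrcc1 and Xrcc4 overlap across the time points.

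Aptx (ENSMUSG00000028411, chr4:40682382-40703194, minus strand) encodes aprataxin, which removes the AMP that a failed ligation leaves on a broken end, and its loss causes ataxia with oculomotor apraxia. Its level was highest at P4, where all 3 libraries lay above the other 12, although no single step was called. Counts were 295, 75 and 203 at P0, 308, 691 and 571 at P4, and 99, 246 and 298 at P8. At P14 they were 237, 233 and 223, and at P21 104, 182 and 199. The P0 libraries had 56.7, 14.9 and 41.1 CPM and the P4 libraries 75.5, 89.4 and 97.8 CPM, so the groups did not overlap. The P8 libraries had 19.96, 46.9 and 53.9 CPM, those of P14 43.6, 44.6 and 42.8 CPM, and those of P21 34.7, 38.5 and 31.9 CPM. At P14 and P21 the replicates lay close together, with SDs of 0.911 and 3.35 CPM around means of 43.7 and 35.0 CPM, against 21.2 CPM around 37.6 CPM at P0.

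The rise of Aptx from P0 to P4 had a log2 fold change of 1.22 (SE 0.44, 95% interval 0.29 to 2.15) and an adjusted p of 0.190 in edgeR's test, so it did not pass the threshold (unadjusted p = 0.0130). In that step 1.97% of all genes were called. The difference from P4 to P8 was -1.12 (SE 0.44, 95% interval -2.04 to -0.20, adjusted p = 0.304, unadjusted p = 0.0204), and 1.13% of genes were called there. The trend over all days had a slope of -0.033 (95% interval -0.083 to 0.016, adjusted p = 0.331), and the test of any course an adjusted p of 0.115. Once the P0 samples were left out, both tests called Aptx. Over P4 to P21 the slope was -0.064 with an adjusted p of 0.0342, beside 11% of genes called as falling, and the test of any course had an adjusted p of 0.0389, beside 15.5% of genes called.

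The astroglial markers, which differed in direction, summed to 5320 to 9162 CPM at P4 and 8328 to 9954 CPM at P8, so these groups overlapped. Aptx was lower at P8 than at P4. The part of the astroglial markers in the level of Aptx was not tested. The genes running most like Aptx over the 15 samples were Timm23, a channel for protein import into mitochondria (r = 0.846), Commd4 (r = 0.826) and Azin1, an inhibitor of antizyme (r = 0.825). RefSeq gives 2 promoter windows for Aptx, with CpG ratios of 0.872 and 0.614, and the former holds the cyclic AMP response element TGACGTCA, found in 1.79% of windows. The window with the ratio of 0.614 lies inside the gene as GENCODE M21 annotates it.

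Xrcc1 (ENSMUSG00000051768, chr7:24546289-24573440, plus strand) encodes the scaffold of repair of breaks in one strand, which binds Lig3, Polb and aprataxin. No change with age was called, and the libraries of every pair of time points overlapped. The counts were 115, 87 and 46 at P0, 55, 100 and 52 at P4, 21, 80 and 52 at P8, 148, 32 and 46 at P14, and 24, 127 and 213 at P21. In CPM the P0 libraries had 22.1, 17.3 and 9.32, those of P4 13.5, 12.9 and 8.91, and those of P8 4.23, 15.3 and 9.40. The P14 libraries had 27.2, 6.13 and 8.83 CPM and those of P21 8.01, 26.9 and 34.1 CPM. At P21 the highest and the lowest of the 3 libraries were thus 34.1 and 8.01 CPM. The slope was 0.030 (95% interval -0.029 to 0.088, adjusted p = 0.484), a fold over 21 days of 1.54 with an interval from 0.657 to 3.60. The interval holds both a fall and a rise, and the test does not show that the level stayed the same. Without the P0 samples the slope was 0.065 with an adjusted p of 0.231. Hipk1, a kinase (r = 0.785), Zbtb43, a zinc finger protein (r = 0.765), and Eif3c, a subunit of an initiation factor of translation (r = 0.753), ran most like it. The RefSeq promoter window of Xrcc1 (chr7:24546449-24546748) lies inside the gene as GENCODE M21 annotates it, downstream of the start at 24546289. The CpG ratio of that window was 0.385, beside a median of 0.384 over all windows. It does not describe the sequence before the GENCODE start.

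Tdp1 (ENSMUSG00000021177, chr12:99884517-99955219, plus strand) encodes the phosphodiesterase that frees DNA ends from stuck topoisomerase, and a mutation of it causes spinocerebellar ataxia with axonal neuropathy. Relative to its mean it was the most scattered of the 5 genes between replicates at P0, P4 and P8. The counts were 28, 100 and 4 at P0, 2, 41 and 154 at P4, 51, 10 and 102 at P8, 40, 135 and 75 at P14, and 13, 67 and 76 at P21. At P4 this was 0.491, 5.30 and 26.4 CPM, the lowest and the highest value of the gene in the whole series. Counting error did not cover this gap, since the exact Poisson 95% intervals were 0.242 to 7.22 counts for the 2 counts and 131 to 180 for the 154. The P0 libraries had 5.38, 19.8 and 0.811 CPM and those of P8 10.3, 1.91 and 18.4 CPM. At P14 the values were 7.36, 25.9 and 14.4 CPM, and at P21 4.34, 14.2 and 12.2 CPM.

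The biological coefficient of variation that edgeR estimated for Tdp1 in the trend fit was 0.915, above that of 70.9% of genes tested. It was 0.453 for Aptx, 0.610 for Xrcc1, 0.652 for Atm and 0.810 for Xrcc4. This spread is taken around the fitted line, so it also holds departures of the time point means from that line. The slope of Tdp1 was 0.020 (95% interval -0.085 to 0.12, adjusted p = 0.820). Its interval over 21 days ran from 0.289-fold to 6.16-fold, so that a fall or rise of several fold was not detectable with this spread. Vhl, the substrate receptor of a ubiquitin ligase (r = 0.856), Derl1, a protein of the endoplasmic reticulum (r = 0.848), and Rnf170, a ubiquitin ligase (r = 0.818), ran most like Tdp1. Tdp1 also starts head to head with a neighbour, Efcab11, 78 bases upstream on the other strand in GENCODE M21. The stretch that the RefSeq models leave between them is shown for that reason. It has 72 bases of RefSeq sequence (GRCm38.p6, chr12:99884443-99884514, plus strand) and none of the motifs searched.
Tdp1 upstream: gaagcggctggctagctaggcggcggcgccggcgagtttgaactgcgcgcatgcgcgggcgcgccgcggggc
The whole Tdp1 window held 1 GC box, outside the stretch shown. Its CpG ratio was 1.005, above that of 94.3% of windows. Efcab11 had 16.5 ± 22.6 CPM at P0 and 0.141 ± 0.245 CPM at P21 (SD, n = 3), with counts from 0 to 213 among the P0 libraries, so it too differed widely between replicates.

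Xrcc4 (ENSMUSG00000021615, chr13:89774027-90089608, minus strand) encodes the partner of Lig4 in end joining. It had no called change. The counts were 67, 0 and 39 at P0, 69, 142 and 43 at P4, 23, 76 and 55 at P8, 26, 84 and 153 at P14, and 53, 52 and 54 at P21. The P0 library without a count has an exact Poisson upper bound of 3.69 counts. In CPM the P0 libraries had 12.9, 0 and 7.90, those of P4 16.9, 18.4 and 7.37, and those of P8 4.64, 14.5 and 9.95. The P14 libraries had 4.79, 16.1 and 29.4 CPM and those of P21 17.7, 11.0 and 8.65 CPM. All neighbouring groups overlapped. The slope was 0.032 (95% interval -0.065 to 0.13, adjusted p = 0.669), a fold over 21 days of 1.59 with an interval from 0.388 to 6.52. Zfp219, a zinc finger protein (r = 0.900), Cdpf1 (r = 0.885) and Slc25a16, a mitochondrial carrier (r = 0.882), ran most like it. Of the exon bases of Xrcc4, 112 (2.66%) are shared with Tmem167 on the opposite strand, which held 14597 counts in all. Whether the counting used strand is not given in the sources used here, so reads in these bases cannot be placed on either gene with certainty.

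None of the 5 genes was called in edgeR's test of any single step between neighbouring time points. At an unadjusted p below 0.05 there was 1 in the step from P0 to P4 and 1 in the step from P4 to P8, Aptx both times, and none in the later steps. DESeq2 called none in these 4 steps either. Over all genes, edgeR called 2.67% from P8 to P14 and 0.329% from P14 to P21. The intervals of the steps were wide for all but Aptx. For Tdp1 the change from P0 to P4 was 0.31 (95% interval -2.23 to 2.85) and for Xrcc4 it was 1.03 (-1.26 to 3.33).

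**Figure D3:**
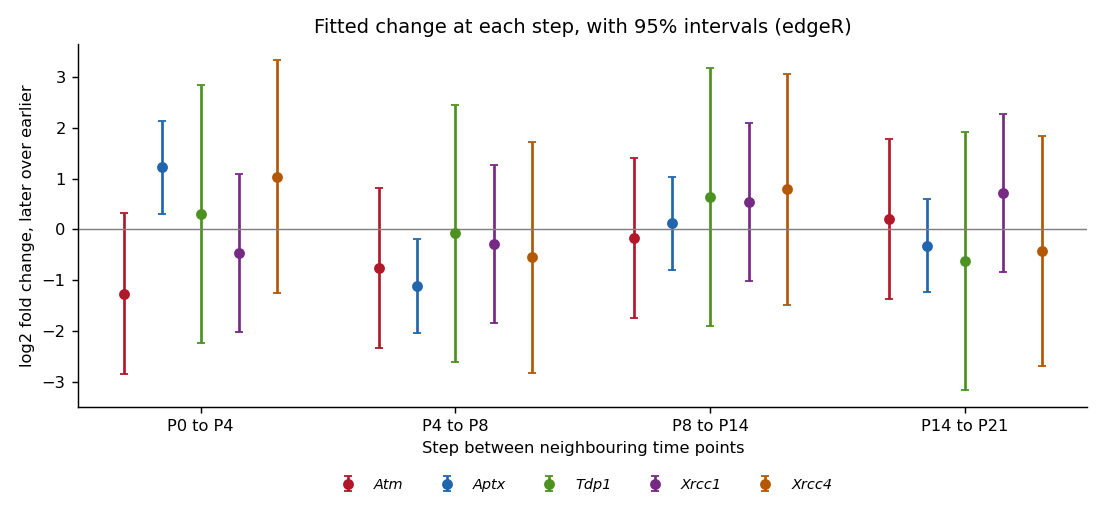
Fitted log2 fold change, later over earlier, at each step between neighbouring time points for the 5 genes, with 95% intervals of edgeR's fit over all 15 samples. The Aptx intervals at the first steps, 0.29 to 2.15 and -2.04 to -0.20, lie off 0, while those of the other genes cross it.

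The enzymes that work with these genes were mostly without a called trend, like most of all genes tested. Parp1 was the exception among the partners in repair of breaks in one strand. Parp1, which detects the break and marks it with poly(ADP-ribose), rose with a slope of 0.075 (SE 0.014, adjusted p = 4.28e-04 in edgeR's test). Its libraries had 54.2, 112.3 and 63.4 CPM at P0, 62.8, 56.9 and 55.3 at P4, and 98.8, 135.8 and 116.5 at P8. They had 190.9, 147.7 and 159.3 CPM at P14 and 156.2, 198.9 and 197.9 CPM at P21. All P14 and P21 libraries lay above all P0 and P4 libraries. Apex1, the endonuclease that cuts at sites without a base, fell by 0.073 log2 units per day (SE 0.019, adjusted p = 0.00889), from 46.3 ± 15.03 CPM at P0 to 17.5 ± 4.53 CPM at P21. Lig3, the ligase held by Xrcc1, had 31.8 ± 17.3 CPM at P0 and 10.6 ± 7.67 CPM at P21, and its slope of -0.065 did not pass (95% interval -0.13 to 0.0026, adjusted p = 0.152). The gap-filling polymerase Polb had a slope of -0.0030 (-0.028 to 0.022) and Tdp2, which frees ends from the other type of topoisomerase, one of 0.021 (-0.034 to 0.076). The tight interval of Polb goes with its higher level, 109.2 ± 28.5 CPM at P0 and 120.3 ± 20.2 CPM at P21. Of the 14 genes listed for this pathway, 1 rose and 1 fell (7.14% each), while 12.1% of all genes tested rose and 14.1% fell. The median slope was -0.023 beside -0.0077 over all genes tested.

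Among the 9 end joining genes none was called in the trend, beside 12.1% of all genes called as rising and 14.1% as falling. Lig4, the ligase held by Xrcc4, had 10.04 ± 15.2 CPM at P0, 29.8 ± 2.13 CPM at P8 and 15.1 ± 10.5 CPM at P21, with a slope of -0.0093 (95% interval -0.10 to 0.086, adjusted p = 0.911). The Ku subunits that bind the ends had slopes of -0.034 (Xrcc5, -0.12 to 0.048) and -0.043 (Xrcc6, -0.10 to 0.013). Nhej1, which bridges Xrcc4 filaments, had at most 5.75 CPM in any library and a slope of -0.043 (-0.20 to 0.11). The median slope of the 9 genes was -0.034.

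Of 16 genes of break sensing and signalling, 1 rose and 1 fell (6.25% each), beside 12.1% of all genes rising and 14.1% falling. Trp53bp1, which gathers at breaks and steers them to end joining, fell with a slope of -0.090 (SE 0.013, adjusted p = 4.24e-05), close to the slope of Atm but with less scatter, from 122.8 ± 31.7 CPM at P0 through 85.1 ± 11.4 CPM at P4 and 51.3 ± 11.4 CPM at P8 to 30.6 ± 4.50 CPM at P21. Rnf8, a ubiquitin ligase that acts after Atm, rose with a slope of 0.062 (SE 0.021, adjusted p = 0.0350), from 33.0 ± 17.0 CPM at P0 to 82.5 ± 37.5 CPM at P21. The complex that activates Atm was not called, with slopes of -0.022 for Mre11a (95% interval -0.080 to 0.035), -0.033 for Rad50 (-0.081 to 0.015) and 0.030 for Nbn (-0.015 to 0.075). The slope of Trp53, a main target of Atm, was -0.018 (-0.048 to 0.012). The median slope of the list was -0.022.

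Homologous recombination, which needs a sister chromatid and so a dividing cell, had 13 of its 14 listed genes tested. Of these, 2 (15.4%) fell, close to the 14.1% of all genes tested that were called as falling. Bard1, the partner of Brca1, fell with a slope of -0.34 (SE 0.091, adjusted p = 0.00948), from 6.44 ± 4.24 CPM at P0 to at most 1 count in any P21 library. Rad54l fell with a slope of -0.11 (SE 0.034, adjusted p = 0.0200), from 17.9 ± 6.47 CPM at P0 to 3.16 ± 1.62 CPM at P21. The median slope of the 13 genes was -0.059. Of the 6 topoisomerases, Top2a, which cells make when they divide, fell from 143.0 ± 28.0 CPM at P0 to 0.0706 ± 0.122 CPM at P21 (slope -0.51, SE 0.050, adjusted p = 5.94e-07). Top1, whose stuck form is the substrate of Tdp1, had 265.1 ± 19.0 CPM at P0 and 253.0 ± 41.4 CPM at P21 and a slope of -0.0031 (95% interval -0.024 to 0.017). These falls ran beside that of the dividing cell markers, 8 of 10 of which fell, and the part of dividing cells was not tested.

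Over these 5 lists together, 58 of 59 genes were tested, of which 2 rose and 5 fell, with a median slope of -0.030. This is 7 calls of 58 genes, while over all genes 12.1% rose and 14.1% fell. The ataxia genes that the study listed, 73 of 75 tested and Atm, Aptx and Tdp1 among them, had 30 that rose (41.1%) and 6 that fell (8.22%), with a median slope of 0.039. Atm is 1 of those 6, and neither Aptx nor Tdp1 is among the 30.

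**Figure D4:**
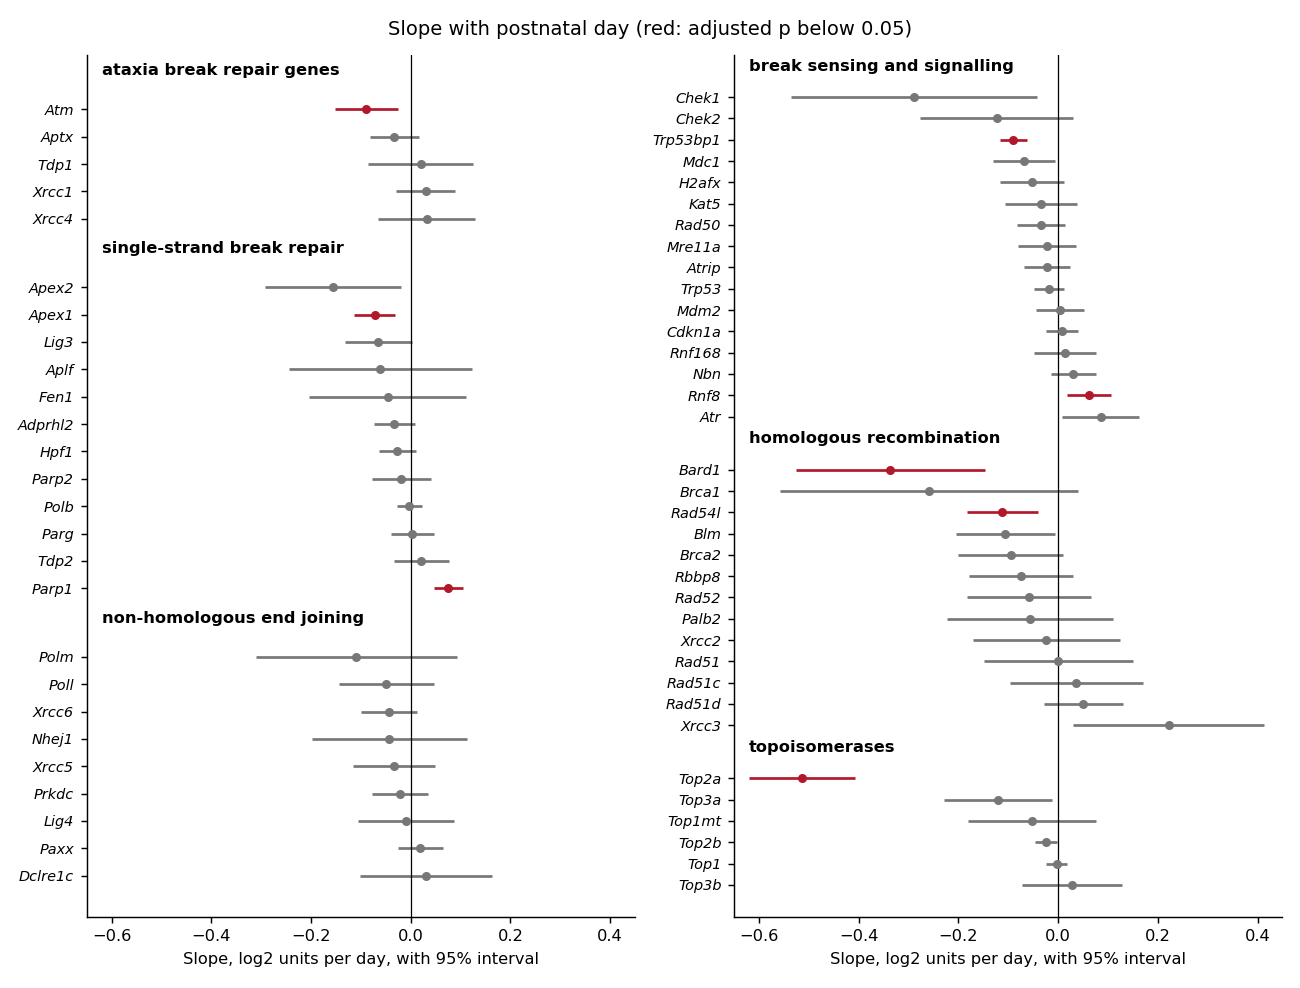
Slope with postnatal day in log2 units per day, with 95% intervals, for the 5 genes and tested genes of the 5 repair lists, in red where the adjusted p of edgeR's trend test is below 0.05. Atm, Apex1, Trp53bp1, Bard1, Rad54l and Top2a are red on the left of 0, and Parp1 and Rnf8 on the right.

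The slope of Atm stayed below 0 in all alternatives run, between -0.11 and -0.037 on the scale of days, and that of Aptx likewise, between -0.064 and -0.018.

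**Figure D5:**
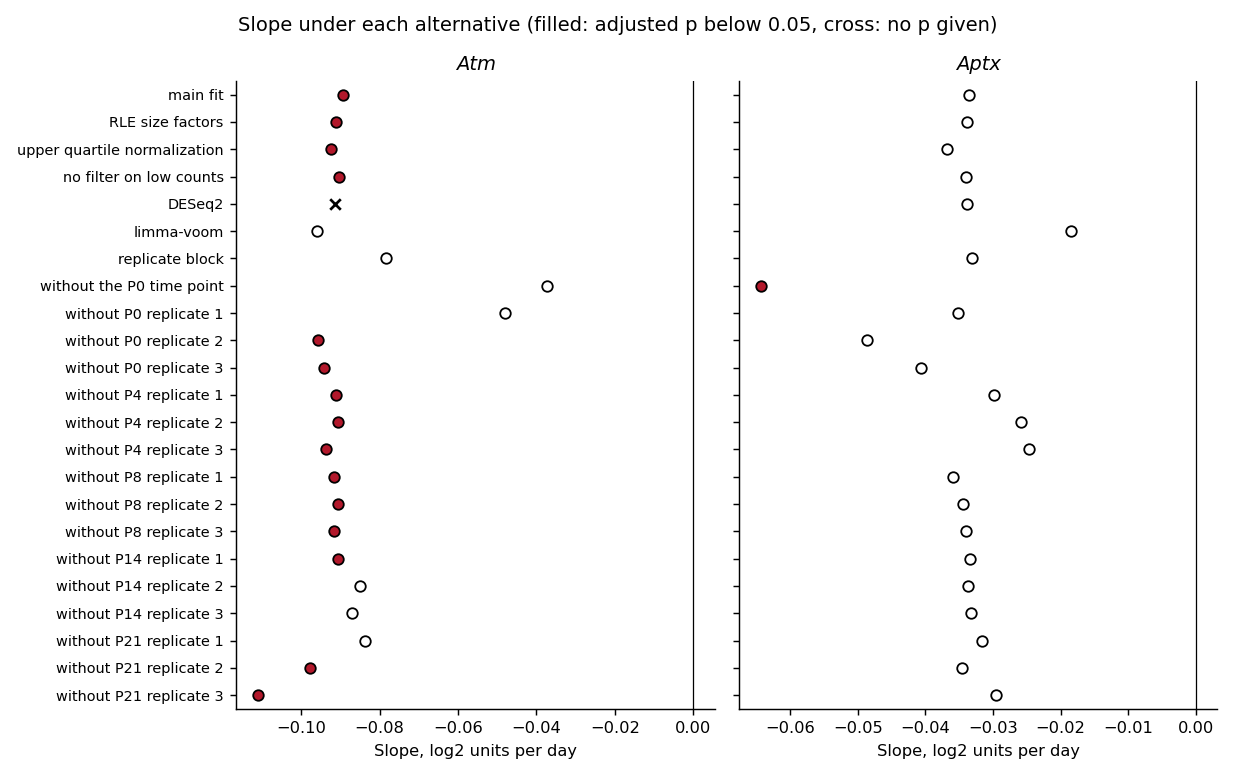
Slope with postnatal day of Atm and Aptx, in log2 units per day, for each alternative fit, filled where the adjusted p is below 0.05 and a cross where the tool gives none. Every point lies below 0, Atm moves to -0.048 without P0 replicate 1, and Aptx is filled only without the P0 time point.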

How the data were processed

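RNA of laser-captured PCs was amplified with the SMARTer Ultra Low kit. The authors trimmed reads with cutadapt 1.2.1, aligned them to GRCm38 with GSNAP, kept unique alignments and made gene counts with HTSeq 0.5.3p9 in its strict intersection mode. The deposited counts are whole numbers without normalization. The annotation release and strand setting are not given in the sources used here.

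The counts of 15 samples were grouped by the labelled time point. Genes were filtered with filterByExpr and scaled by TMM. The trend with day, the time point as a factor and its contrasts were tested in edgeR 4.0.16 (R 4.3.3) by its quasi-likelihood test, adjusted by Benjamini-Hochberg over all 14293 genes, with a threshold of 0.05. DESeq2 1.42.0 and limma 3.58.1 (voom) were alternatives. The fits were tested on simulated counts. The common biological coefficient of variation in the trend fit was 0.757, and depth limits genes with few counts. Poisson intervals cover counting error only.

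Named genes were the 5 genes, their repair partners, up to 3 further called genes each way per list and the 3 genes most like each by r of log2 CPM (prior count 2). A few genes that this rule selects are counted in their lists but not reported here. The genes and lists were chosen with earlier results of these data known. Same-numbered replicates did not deviate together (mean r = -0.0033 over 30 pairs), and no replicates were near-identical in their counts (chi-square per gene from 18.4 to 56.5). Sequences came from RefSeq, in which all 5 genes were found.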

Additional observations from a re-analysis of the deposited data

How the results depend on the processing

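The fall of Atm lost its call under limma-voom (slope -0.096, adjusted p = 0.0598), with the replicate number as a block (-0.078, adjusted p = 0.0917) and without the P0 time point (-0.037, adjusted p = 0.538), and with single libraries left out its slope ran from -0.11 to -0.048 (adjusted p from 0.0225 to 0.263). DESeq2, which was not refitted with single libraries left out, gave no adjusted p for it, at a slope of -0.091. DESeq2 called Atm as differing between time points (adjusted p = 0.0195) and between P21 and P0 (log2 fold change -2.05, adjusted p = 0.0235), while edgeR's estimate of that contrast (-2.01, adjusted p = 0.0702) ran from -2.40 to -0.96 (adjusted p from 0.0428 to 0.432) with single libraries left out. Aptx was called without the P0 time point, in the trend (-0.064, adjusted p = 0.0342) and in any difference (adjusted p = 0.0389). On the longest coding transcript the mean RPKM was 5.47 for Tdp1, 5.81 for Xrcc1 and 7.67 for Xrcc4. The cause of these changes was not tested.

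With the replicate block, the Tdp1 steps turned sign, to -0.18 from P0 to P4 and to 0.53 from P4 to P8. Same-numbered samples showed no shared deviation over all genes tested, since none of 30 such pairs had a correlation of deviations over 0.1 (highest 0.047). Pairing that acts on only some genes would not be seen in this way. With single libraries left out, signs turned only in contrasts that were not called. P21 against P0 ran from -0.51 to 0.29 for Aptx and from -0.34 to 1.69 for Tdp1. The step from P0 to P4 ran from -1.60 to 1.77 for Tdp1, and the step from P4 to P8 from -0.83 to 1.78 for Tdp1 and from -0.80 to 0.055 for Xrcc1. The step from P8 to P14 ran from -0.63 to 0.38 for Atm, from -0.19 to 0.39 for Aptx and from -0.36 to 1.05 for Xrcc1. The last step ran from -0.16 to 0.66 for Atm and from -0.87 to 0.25 for Xrcc4.

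Over all genes, DESeq2 called more genes than edgeR at each step, with 216 against 33 falling and 557 against 248 rising from P0 to P4, 173 against 36 and 323 against 126 from P4 to P8, 446 against 197 and 398 against 185 from P8 to P14, and 125 against 38 and 50 against 9 from P14 to P21. The replicate block gave 22 falling from P4 to P8, and no filter on low counts 14 rising in the last step. With single libraries left out, edgeR's counts of falling and of rising genes ran from 19 to 65 and from 167 to 261 from P0 to P4, from 9 to 42 and from 65 to 159 from P4 to P8, from 74 to 207 and from 89 to 236 from P8 to P14, and from 21 to 59 and from 2 to 11 from P14 to P21. For the 5 genes, 172 other alternative values kept their result, as did 504 values with a single library left out. For slopes and contrasts this means the same direction and the same side of the threshold. For the test of any difference, which has no direction, it means the threshold alone. The mean RPKM values among the 172 have no threshold.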

Other observations

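The nearest protein-coding genes that start on the other strand near Xrcc1, Xrcc4 and Aptx were looked at after their values were seen. Pinlyp, which starts 171 bases upstream of the GENCODE M21 start of Xrcc1, had no count in any of the 15 libraries. Xrcc1 had counts in all of them. Tmem167, whose exons overlap with those of Xrcc4, had means between 174.9 and 191.6 CPM over the time points, and Xrcc4 between 6.93 and 16.7 CPM. Dnaja1, a cochaperone, starts 18956 bases upstream of Aptx, much farther than the 307 bases between Npat and Atm, and is not head to head with it. Dnaja1 had 262.3 ± 52.8 CPM at P0 and 255.3 ± 63.4 CPM at P4 (SD, n = 3), groups that overlapped, whereas those of Aptx did not.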
